A study of Mus musculus with 30 samples.

Results

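Ndrg1 and 9 other genes of the response to low oxygen were followed through all 6 groups of a study of the mouse abdominal aorta. The 10 genes were Ndrg1, Hif1a, Egln3, Slc2a1, Pgk1, Ldha, Vegfa, Adm, Bnip3 and Ankrd37. Ndrg1 was chosen by its measured values, a lower level with baicalin than with angiotensin II alone, and the other genes were listed as known members of the same response. In all, 9 of the 10 had a gene level in every library, of 14379 genes that did, and the same 9 were among the 13223 genes tested. Ankrd37 had no transcript listed for every group and is described by its own values only.

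Cells sense oxygen through the hypoxia-inducible factors (HIF), transcription factors whose alpha subunits, such as the product of Hif1a, are marked for destruction by prolyl hydroxylases while oxygen is present. When oxygen is short the alpha subunit persists, pairs with ARNT and binds short DNA sequences near genes for glucose uptake, glycolysis, vessel growth and mitochondrial turnover. Control of the HIF-1 alpha subunit is largely at the protein level, which RNA does not show. Ndrg1 encodes a cytoplasmic protein induced by low oxygen, androgens and differentiation, and it is also needed in Schwann cells, where loss of the human gene causes a demyelinating neuropathy.

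Wild-type C57BL/6 mice received saline in the Control group and 500 ng/kg/min of angiotensin II in the AngII group, over 28 days. In the 4 remaining groups a compound was added to that angiotensin II. AngII+ETH had ethoxysanguinarine, a plant alkaloid, at 5 mg/kg/d; AngII+BAI had the flavonoid glycoside baicalin at the same dose, as AngII+GAS had the phenolic glucoside gastrodin. AngII+VAL had valsartan at 10.4 mg/kg/d. Angiotensin II constricts arteries and raises blood pressure, and valsartan blocks its type 1 receptor. The labels name no other agent and give no age. Each group had 5 libraries of total RNA depleted of ribosomal RNA, and nothing in the labels says that the 5 came from separate mice, so p-values measure only the spread between these samples. Baicalin had no group without angiotensin II, and the same holds for the other compounds.

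Levels are in FPKM (fragments per kilobase of transcript, scaled to the sequencing depth), and the steps between low values put the depth at 69.8 to 80.8 M (mega) reads per library. Smooth muscle markers were high, with a mean log2(FPKM + 1) of 7.03 to 8.54 in 28 libraries, but 5.78 and 6.46 in libraries 3 and 5 of AngII+BAI. In those 2 libraries the mean level of macrophage markers was 6.62 and 5.98, against 3.7 to 5.86 elsewhere, and several AngII+BAI results below are given again without them. Library 1 of AngII+BAI also stood apart, with a median absolute log2 difference from the other 4 of 0.489 to 0.719, against 0.209 to 0.518 among those 4. Mitochondrially encoded genes took 10.3% to 25.2% of the FPKM of a library. A whole piece of aorta holds many cell types, and in such samples fewer cells of a type and less RNA per cell cannot be told apart.

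HIF binds a core of letters ACGTG or GCGTG. These were searched on both strands in the 250 bases before each annotated start, in RefSeq promoters of GRCm38.p6, a build with the coordinates of the mm10 named for the data. Of the 10 genes, 9 were matched there, with 11 starts, and Ndrg1 was not. ACGTG was present before 8 of the 11 starts, against 16.6% of 32851 mouse promoters, and GCGTG before 6, against 28.2%. The median share of G and C in the listed genes' promoters was 62.8%, against 52.4% over all, and a match describes letters only, not a bound site. Shown are the last 160 bases before the start of 4 genes, 3 whose levels correlated positively between libraries (Ldha, Pgk1 and Bnip3) and Slc2a1, which did not follow them. Capitals mark ACGTG or GCGTG on either strand, read 5′ to 3′ on the gene's own strand. Where both strands match, the capitals run on as CACGTG.
Ldha, chr7:46845644-46845803, plus strand: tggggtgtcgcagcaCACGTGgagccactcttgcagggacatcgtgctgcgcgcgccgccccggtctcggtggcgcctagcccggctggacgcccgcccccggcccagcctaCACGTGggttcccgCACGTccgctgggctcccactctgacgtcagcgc
Pgk1, chrX:106186940-106187099, plus strand: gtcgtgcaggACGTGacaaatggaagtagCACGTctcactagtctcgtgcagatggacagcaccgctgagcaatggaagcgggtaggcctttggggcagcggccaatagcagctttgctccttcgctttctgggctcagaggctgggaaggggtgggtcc
Bnip3, chr7:138909507-138909666, minus strand: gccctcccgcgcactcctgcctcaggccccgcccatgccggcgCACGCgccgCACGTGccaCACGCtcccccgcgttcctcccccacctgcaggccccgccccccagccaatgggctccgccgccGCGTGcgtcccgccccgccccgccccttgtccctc
Slc2a1, chr4:119108585-119108744, plus strand: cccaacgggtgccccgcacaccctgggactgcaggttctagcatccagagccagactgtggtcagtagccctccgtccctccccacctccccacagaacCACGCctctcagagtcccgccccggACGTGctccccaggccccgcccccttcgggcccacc
Ldha had the letters CACGTG starting at positions -145 and -48, counted from the start, and a further match at -34. Pgk1 had matches at -150 and -131, and Bnip3 had 5, of which CACGTG at -108 lay between GCGTG matches at -117 and -99. Slc2a1, the glucose transporter gene, had 1 of each core, at -61 and -36.

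Ndrg1 (ENSMUSG00000005125, chromosome 15, 66929318 to 66969640, minus strand, mm10) was quantified through 1 protein-coding transcript, Ndrg1-201, of 2889 bases. The Control libraries had 58.3, 44.8, 56.3, 46.5 and 47.4 FPKM. The AngII libraries had 95.6, 52.3, 75.6, 81.1 and 135 FPKM, so 4 of the 5 lay above every Control library and library 2 lay among them. The AngII+BAI libraries had 41.7, 51.9, 36.6, 39.9 and 46.3 FPKM. The highest of these stood just under the lowest AngII library, and the 2 groups did not overlap.

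By mean, the other compound groups lay between AngII and AngII+BAI. Ndrg1 was at 52.2, 58, 54.3, 93.9 and 72.2 FPKM in AngII+ETH, where library 4 matched the AngII level and the rest lay near or somewhat above Control. It was at 44.7, 57.3, 43.9, 36.6 and 59.5 FPKM in AngII+GAS, around the Control level. It was at 46, 56.9, 59.5, 64 and 65.4 FPKM in AngII+VAL. Ranked by mean ± SD over 5 libraries, the order was AngII (87.9 ± 30.6), AngII+ETH (66.1 ± 17.4), AngII+VAL (58.4 ± 7.69), Control (50.7 ± 6.19), AngII+GAS (48.4 ± 9.7) and AngII+BAI (43.3 ± 5.95). Between neighbours in that order the gap was smaller than the larger of their SDs, except between AngII+VAL and Control, where the gap of 7.71 FPKM about equalled the SD of 7.69. AngII thus had both the highest mean of Ndrg1 and the widest spread.

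**Figure D1:**
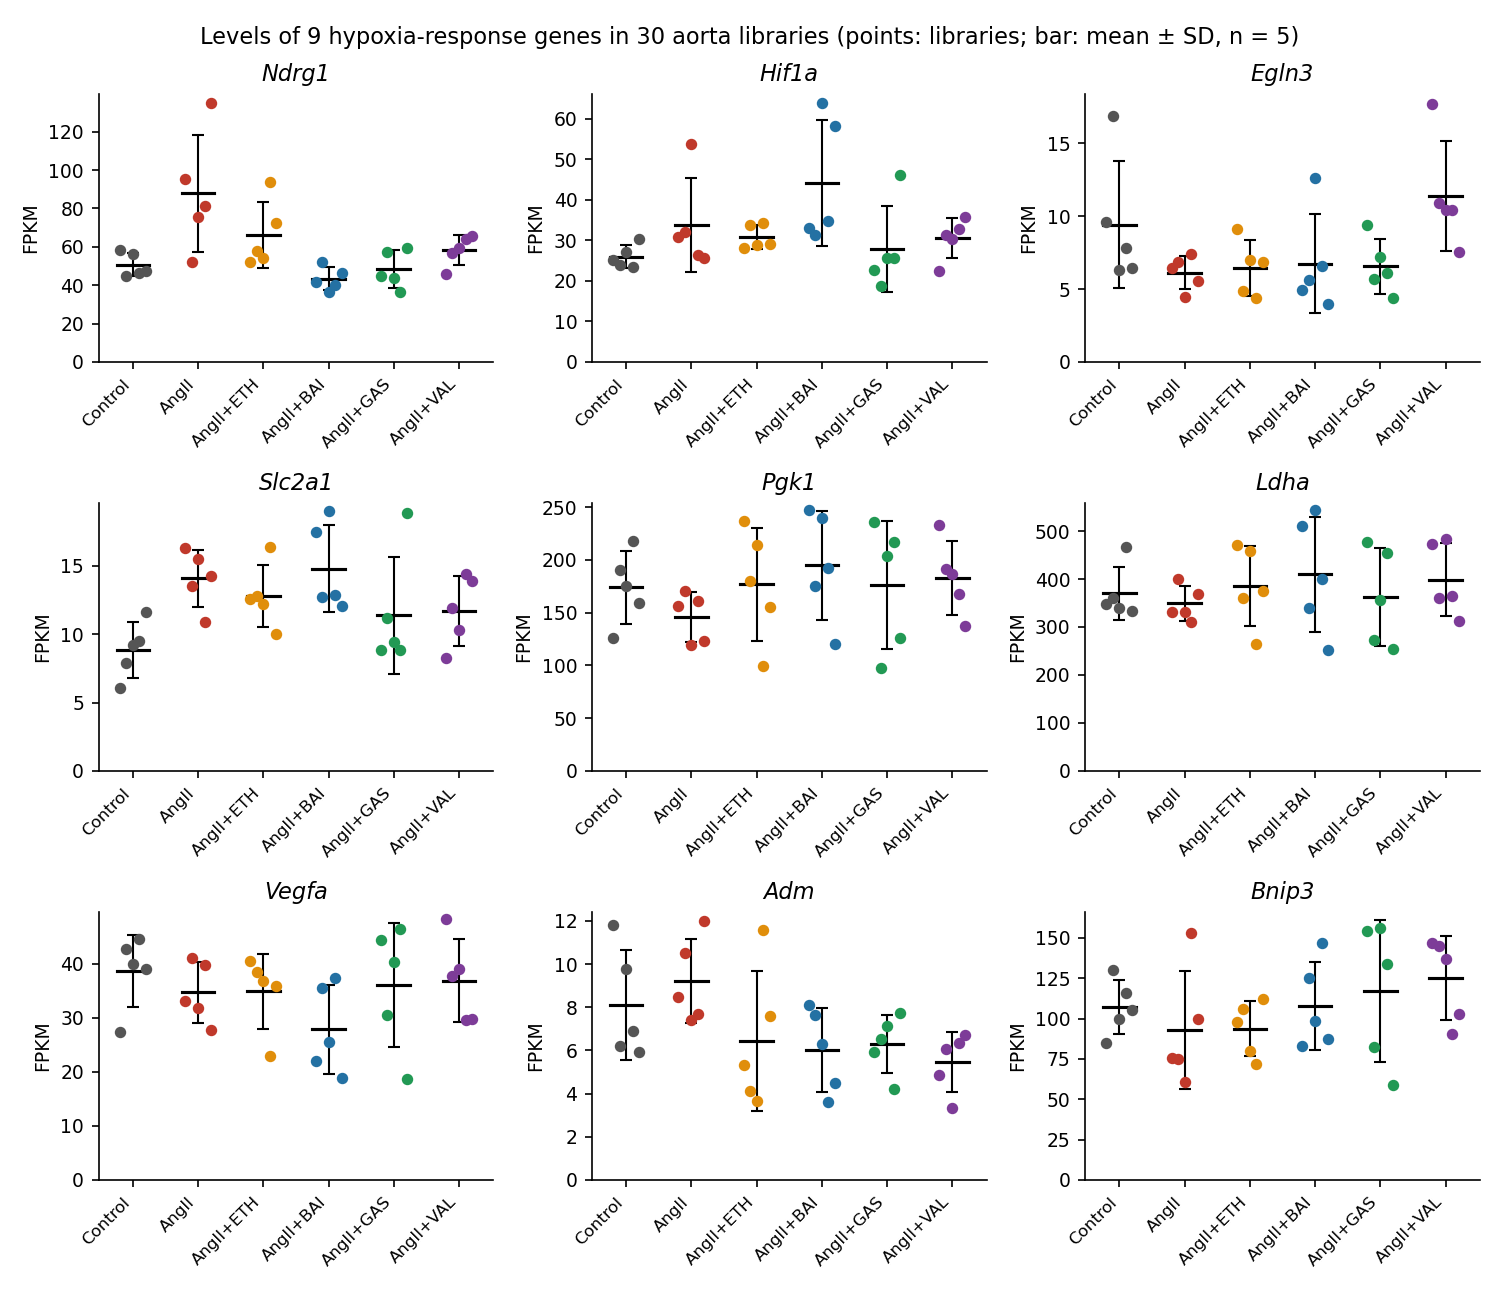
Levels of the 9 genes with a value in every library, in FPKM on linear axes that start at 0, for the 6 groups on the x axis. Points are libraries and bars are the mean ± SD of 5 libraries: Ndrg1 is highest and most spread in AngII (52.3 to 135 FPKM), while Ldha, Pgk1 and Vegfa overlap between all groups.

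Differences between groups were fitted with limma on log2(FPKM + 1) and are given with their standard error (SE). Because Ndrg1 was picked on AngII and AngII+BAI libraries, its differences that use either group are descriptions without a test. Its level was 0.72 (SE 0.19) higher in AngII than in Control and 0.95 (log2 difference -0.95) lower in AngII+BAI than in AngII. The other comparisons with AngII share its 5 libraries. The differences there were -0.80 in AngII+GAS, -0.53 in AngII+VAL and -0.37 in AngII+ETH, with the same SE. Tests that use neither group set a compound group against Control. Ndrg1 differed from Control by 0.35 in AngII+ETH, -0.08 in AngII+GAS and 0.20 in AngII+VAL (SE 0.19), and none passed (limma adjusted p = 0.974, 1 and 1). Without libraries 3 and 5 of AngII+BAI the difference of that group from AngII was -0.91.

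Markers of Schwann cells, the glia of peripheral nerves, moved with Ndrg1. Of 11 markers 10 had a level, none was at 0 throughout a group, and their summed level was 23.7 to 203 FPKM in AngII, against 27.8 to 33.2 in Control, 35 to 77.4 in AngII+ETH, 26.8 to 35.9 in AngII+BAI, 20.3 to 38.4 in AngII+GAS and 29.9 to 36.5 in AngII+VAL. Their mean log2(FPKM + 1) in AngII libraries 1 to 5 was 2.89, 1.31, 2.31, 2.71 and 4.04, which ranks the 5 libraries as Ndrg1 does. Neuron markers ranked them the same way, at 5.53, 0.779, 1.02, 3.83 and 5.93, with 14 of 14 higher in AngII than in Control (median 2.35) and 14 of 14 lower in AngII+BAI than in AngII (median -1.46), 0 past the threshold in either. Of the 9 Schwann cell markers tested, 9 were higher in AngII than in Control (median log2 difference 1.24) and 9 were lower in AngII+BAI than in AngII, with 0 past the threshold in either. Over all genes tested 66.6% were higher in AngII than in Control, and 48.7% were higher in AngII+BAI than in AngII. As deviations from the group mean over 30 libraries, Ndrg1 correlated with the Schwann cell marker level at Pearson r = 0.74 (Spearman 0.58). Without libraries 2 and 5 of AngII, whose Ndrg1 lay farthest out, r was 0.48. With the neuron marker level r was 0.51 (Spearman 0.48), and 0.29 without those 2. The points share libraries and their makeup of tissue, so this is a description. With the Schwann cell and skeletal muscle marker levels as terms in the fit, the Ndrg1 difference was 0.12 (SE 0.17) in AngII against Control, -0.33 in AngII+BAI against AngII and 0.18 in AngII+VAL against AngII, where its sign turned. The part of nerve tissue in the Ndrg1 difference was otherwise not tested.

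**Figure D2:**
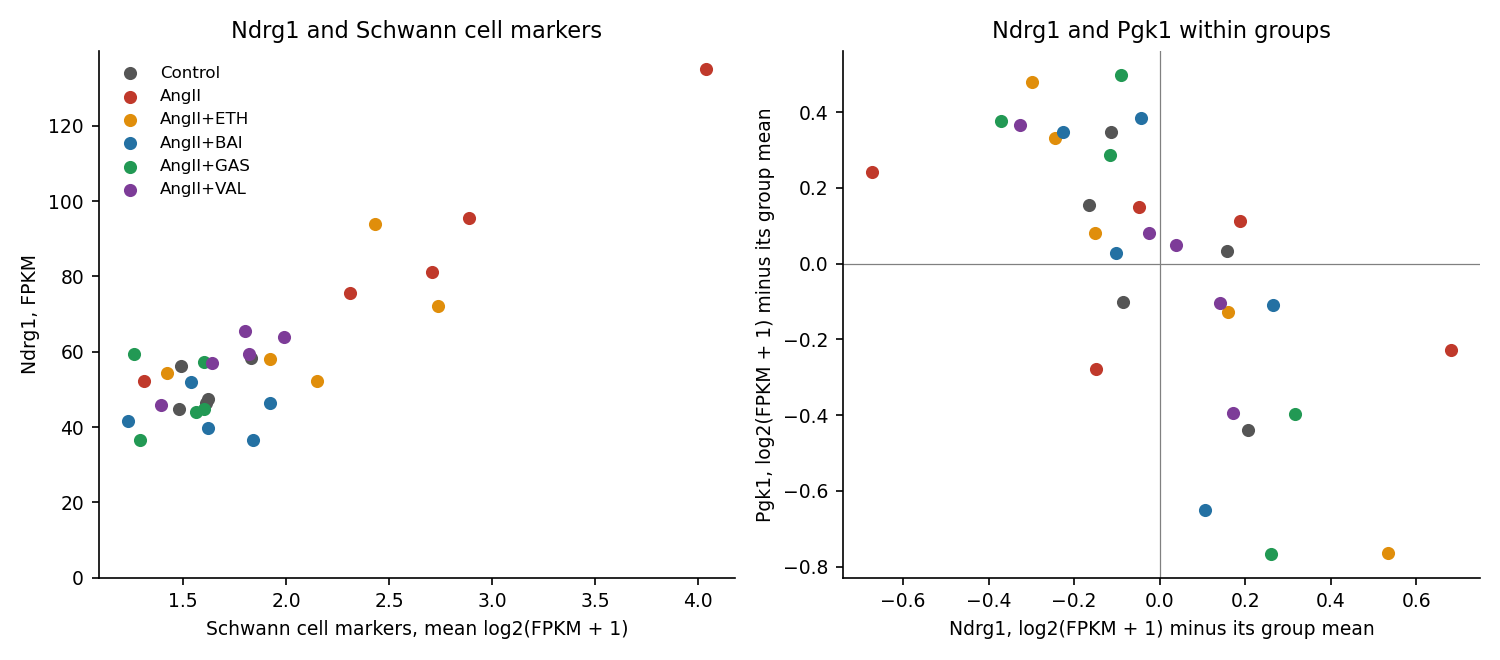
Left, Ndrg1 in FPKM against the mean log2(FPKM + 1) of the Schwann cell markers. Right, deviations of Ndrg1 and Pgk1 from their group means on the log2(FPKM + 1) scale. Each point is 1 of 30 libraries, coloured by group in both panels. On the left, AngII library 5 is highest on both axes (4.04 and 135 FPKM). On the right, libraries with more Ndrg1 than their group tend to have less Pgk1 (r = -0.70), though some, such as AngII library 1, have more of both.

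Hif1a encodes the oxygen-regulated subunit of HIF-1 (ENSMUSG00000021109, chromosome 12). Its level was 25.9 ± 2.84 FPKM in Control and 44.2 ± 15.5 in AngII+BAI. The AngII+BAI libraries had 33, 31.3, 63.9, 34.8 and 58.3 FPKM, all above the highest Control library at 30.3. The difference of 0.69 (SE 0.22) did not pass (limma adjusted p = 0.0918). The 2 high values are libraries 3 and 5, which stood apart, and without them the difference was 0.34 (adjusted p = 0.44). Without library 2 it was 0.79 and passed (adjusted p = 0.034). All 7 macrophage markers had a level, none at 0 throughout a group, with sums of 146 to 209 FPKM in Control, 164 to 424 in AngII, 115 to 307 in AngII+ETH, 195 to 910 in AngII+BAI, 136 to 277 in AngII+GAS and 136 to 529 in AngII+VAL. Within groups Hif1a correlated with the macrophage marker level at r = 0.55 over 30 libraries, and their part in the difference was not tested. In AngII, Hif1a was at 30.9, 32, 53.8, 26.3 and 25.6 FPKM, with library 3 alone far above the Control range.

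Egln3 encodes PHD3, a prolyl hydroxylase that marks HIF for destruction and is itself induced by HIF (ENSMUSG00000035105, chromosome 12). The AngII libraries had 6.45, 6.84, 4.46, 7.39 and 5.52 FPKM, and the AngII+VAL libraries 17.7, 10.9, 10.4, 10.4 and 7.52 FPKM. The groups did not overlap, and the difference was 0.76 (SE 0.26, limma adjusted p = 0.284), short of the threshold. Control held the 2nd highest library of all, at 16.9 FPKM, beside 9.62, 6.3, 7.84 and 6.47. Skeletal muscle markers, of which 10 of 12 had a level, were high in the same libraries: their mean log2(FPKM + 1) was 6.77 in Control library 2 and 5.05 to 6.72 in AngII+VAL, against 0.726 to 2.35 in AngII. Their summed level was 589 to 3054 FPKM in AngII+VAL and 10.6 to 73.4 in AngII, where Myh2 was at 0 in every library. It was 22.7 to 3348 in Control, 26.6 to 1168 in AngII+ETH, 33 to 2722 in AngII+BAI and 14.6 to 261 in AngII+GAS. Within groups Egln3 correlated with the marker level at r = 0.67 over 30 libraries. With the marker terms in the fit the difference became -0.10 (SE 0.30), and the part of muscle in it was not otherwise tested.

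Slc2a1, the gene of the glucose transporter GLUT1 (ENSMUSG00000028645, chromosome 4), was higher in AngII than in Control on average. Control libraries had 6.08, 7.93, 9.2, 9.54 and 11.6 FPKM, and AngII libraries 16.3, 13.5, 15.5, 10.9 and 14.3 FPKM. Only AngII library 4 and Control library 5 overlapped. The difference was 0.63 (SE 0.19) and did not pass (limma adjusted p = 0.225). AngII+BAI, at 17.5, 12.7, 19, 12.9 and 12.1 FPKM, lay wholly above Control, with a difference of 0.69 (SE 0.19, adjusted p = 0.0609). The latter p crossed the threshold when 1 of 3 libraries was left out, being 0.0477 without Control 5, 0.0314 and 0.04 when library 2 or library 4 of AngII+BAI was dropped. With libraries 3 and 5 of that group both left out, the difference was 0.65 (adjusted p = 0.165). Against AngII the compound groups differed by 0.06 (AngII+BAI), -0.13 (AngII+ETH), -0.26 (AngII+VAL) and -0.33 (AngII+GAS), so the order of the compounds was not that seen for Ndrg1.

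The glycolytic genes were abundant and differed little between groups. Pgk1, phosphoglycerate kinase (ENSMUSG00000062070, chromosome X), had its lowest mean in AngII, 146 ± 23.5 FPKM, and its highest in AngII+BAI, 195 ± 51.8, with a range over all libraries of 97.6 to 247 FPKM. Ldha, the lactate dehydrogenase subunit that makes lactate from pyruvate (ENSMUSG00000063229, chromosome 7), ran from 253 to 545 FPKM, with means from 349 ± 35.5 in AngII to 410 ± 120 in AngII+BAI. For both genes each neighbouring pair of groups, ranked by mean, differed by less than the larger of their SDs. AngII differed from Control by -0.24 (SE 0.25, limma adjusted p = 0.75) for Pgk1 and by -0.08 (SE 0.21, adjusted p = 0.921) for Ldha. The transcripts of Ldha varied more than their sum. In AngII+BAI the transcript Ldha-210 had 234 ± 140 FPKM, against 74.5 ± 75.5 in AngII, and in Control Ldha-202 ranged from 22.1 to 407 FPKM. These isoforms share most of their sequence, and the sources used here do not say how reads were divided among them. Pseudogene copies of Ldha and Pgk1 may also share reads.

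Vegfa, the main growth factor for endothelial cells (ENSMUSG00000023951, chromosome 17, minus strand), was lowest in AngII+BAI. Its libraries had 22, 35.6, 25.6, 37.4 and 18.8 FPKM there, against 27.4, 42.7, 39.9, 44.6 and 39 in Control and 33.1, 41.1, 31.9, 39.7 and 27.7 in AngII. The ranges overlapped in both comparisons. The difference from Control was -0.49 (SE 0.22, limma adjusted p = 0.226), and -0.30 without libraries 3 and 5. AngII differed from Control by -0.15 (SE 0.22, adjusted p = 0.836). Most Vegfa signal lay in Vegfa-201, at 25.2 ± 4.61 FPKM in AngII. Vegfa-202, a longer coding transcript, was at 5.24 to 6.43 FPKM in AngII+VAL and at 1.28 to 3.17 in AngII, and it reached 6.45 in Control and 6.69 in AngII+GAS. In AngII+BAI it ran from 1.38 to 18.9 FPKM, and the library with 18.9 had only 1.65 FPKM of Vegfa-201. The sources used here do not say how reads were divided between these transcripts either.

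Adm encodes adrenomedullin, a peptide that widens vessels (ENSMUSG00000030790, chromosome 7). AngII libraries had 8.46, 10.5, 7.43, 7.71 and 12 FPKM. AngII+VAL libraries had 4.87, 6.07, 3.32, 6.33 and 6.71 FPKM, each below the lowest AngII library, with a difference of -0.67 (SE 0.25, limma adjusted p = 0.318). With the Schwann cell and skeletal muscle marker terms in the fit it was -0.45 (SE 0.37). Kidney markers, of which 3 of 10 had a level, summed to 70.3 to 100 FPKM in AngII+VAL and 0.288 to 33.5 in AngII. The part of other tissue in the Adm difference was not otherwise tested. The other compound groups also had lower means than AngII, with overlap. Their differences were -0.57 in AngII+BAI, given without a p, -0.54 in AngII+ETH (adjusted p = 0.994) and -0.49 in AngII+GAS (adjusted p = 0.386). All 4 share the AngII libraries, so they are not separate evidence. AngII itself was near Control, where Adm was at 8.11 ± 2.55 FPKM (difference 0.19, SE 0.25, adjusted p = 0.81).

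Bnip3, which marks mitochondria for removal by autophagy (ENSMUSG00000078566, chromosome 7, minus strand), had means from 92.8 ± 36.4 FPKM in AngII to 125 ± 26.1 in AngII+VAL. AngII libraries had 75.6, 75.2, 60.6, 153 and 99.5 FPKM, and library 4 alone exceeded every Control and AngII+VAL library. The difference of AngII+VAL from AngII was 0.47 (SE 0.25, limma adjusted p = 0.504). Ankrd37, a small HIF target with ankyrin repeats, was listed only for 2 groups. It had 1.24, 0.0421, 1.13, 0.451 and 0.614 FPKM in AngII+BAI and 0.177, 0.6, 1.09, 0.415 and 0.37 FPKM in AngII+GAS. Ankrd37 overlaps Ufsp2 on the other strand, which was at 1.69 to 21.1 FPKM, above Ankrd37 itself. Ndrg1, Slc2a1, Bnip3, Adm and Hif1a overlap antisense genes that had no listed level, and the library kit does not mark strand, so a share of their reads could come from the other strand.

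Counted over the 9 tested genes, differences between groups seldom reached the threshold. In AngII against Control 4 were higher and 5 lower, with a median log2 difference of -0.08 against 0.11 over all genes, and 0 of 9 were called, as were 0 of 13223 genes (0%). At an unadjusted limma p under 0.05 stood 1480 genes and, among the 8 genes other than Ndrg1, Slc2a1. Here 0 of 9 had groups that did not overlap, against 3.55% of all genes. For AngII+BAI against AngII the call rate was 0.333%, and Ndrg1, picked on these libraries, was the member called and the member whose groups did not overlap (1.7% of all genes); nothing is read from either. In AngII+ETH against AngII 0 of 9 were called (0% of all genes). At an unadjusted limma p under 0.05 stood 451 genes and, of the other 8, Adm, and 0 of 9 did not overlap (0.499%). In AngII+GAS against AngII 0 of 9 were called, against 0.0151%, and 0 of 9 did not overlap, against 2.31%. In AngII+VAL against AngII 0 of 9 were called (0% of all genes). At an unadjusted limma p under 0.05 stood 1429 genes and, of the other 8, Adm and Egln3. Here 2 of 9, Adm and Egln3, did not overlap, against 2.96%.

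Against Control, 0 of 9 were called with each compound by limma. The rate over all genes was 1.44% in AngII+BAI, 0.00756% in AngII+GAS, and 0% in AngII+ETH and AngII+VAL, where 685 and 508 genes had an unadjusted p under 0.05, among them Slc2a1 in AngII+ETH (difference 0.49). The AngII+BAI and Control ranges did not overlap for 2 of 9, Slc2a1 and Hif1a, against 3.22% of all genes, and 3 of the 8 genes other than Ndrg1 (Hif1a, Vegfa and Slc2a1) had an unadjusted p under 0.05, as did 2511 of all genes. The model recovered 59% of simulated log2 changes of 1 in AngII against Control, so changes of that size and smaller may have gone uncalled. The simulation gave each gene the same normal spread in every group, independent of other genes. The real groups differed in spread, so the share may not hold for these data.

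**Figure D3:**
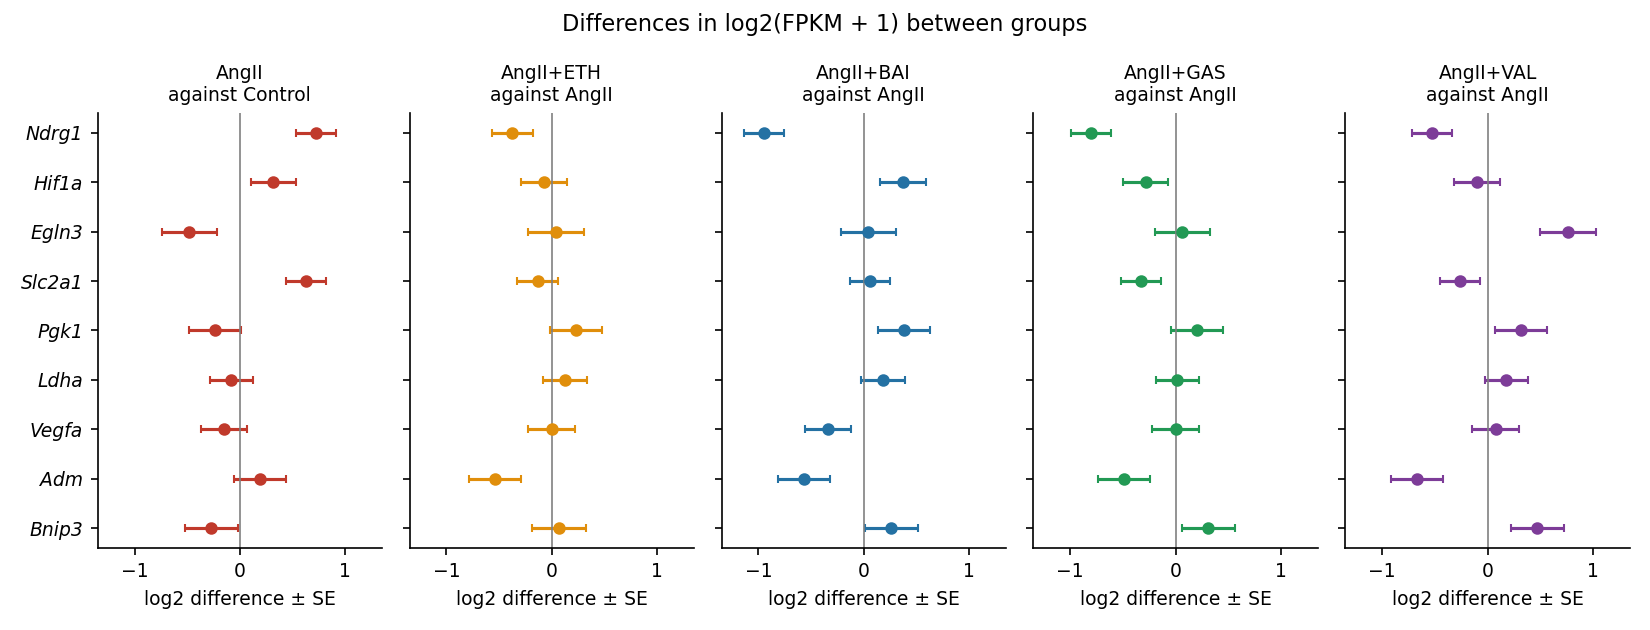
Differences in log2(FPKM + 1) between groups for the 9 genes, with bars of 1 SE; the x axis is linear in log2 units and each panel is 1 comparison. Ndrg1 lies at 0.72 in AngII against Control and between -0.95 and -0.37 in the 4 compound groups against AngII, which share the AngII libraries, while Pgk1, Ldha and Bnip3 lie above 0 in the same 4 panels. With the Schwann and muscle marker terms in the fit, not drawn here, Ldha lay below 0 in those comparisons, as did Pgk1 except in AngII+ETH.

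The listed genes did not vary as one block between libraries of the same group. Correlations were computed over 30 libraries on deviations from the group mean of log2(FPKM + 1), and are descriptions, since all points share libraries, depth and tissue makeup. Ldha and Pgk1 went together (Pearson r = 0.86, Spearman 0.82), as did Vegfa with Bnip3 (0.78, Spearman 0.77) and Vegfa with Pgk1 (0.71, Spearman 0.66). Without the 2 libraries farthest out on the first gene these were 0.84, 0.70 and 0.65. Ndrg1 ran against them, at -0.70 with Pgk1, -0.63 with Vegfa and -0.59 with Ldha (Spearman -0.75, -0.65 and -0.63). Without libraries 2 and 5 of AngII these were -0.78, -0.66 and -0.73. Ndrg1 correlated positively with Adm (0.55, Spearman 0.61) and hardly with Hif1a (0.00, Spearman 0.03). The share of mitochondrially encoded RNA moved with Vegfa (r = 0.78), Bnip3 (0.64), Slc2a1 (-0.61) and Hif1a (-0.64), and its part was not tested. Brown adipocyte markers were lower in 8 of 8 in AngII than in Control (median -0.75, 0 called). Their mean log2(FPKM + 1) was lowest in Control 1 (5.9), AngII 5 (4.78), AngII+ETH 4 (4.94), AngII+BAI 5 (5.38) and AngII+GAS 5 (5.71). Each of these libraries also had the lowest Vegfa of its group. In AngII+VAL library 5 was lowest in the markers (5.78) and library 4 in Vegfa. The part of brown fat was not tested. After rescaling each library to its nuclear genes Ndrg1 was at -0.77 with Pgk1, -0.49 with Vegfa and -0.68 with Ldha.

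**Figure D4:**
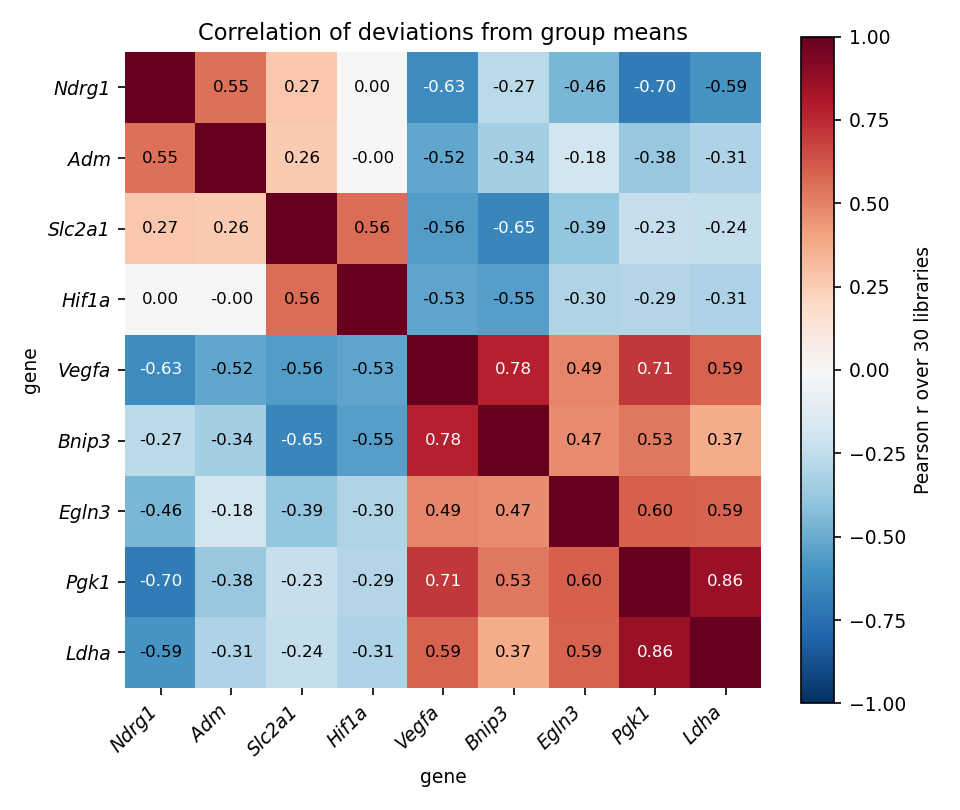
Pearson correlation between the 9 genes over 30 libraries, computed on deviations from group means of log2(FPKM + 1); both axes list genes and colour runs from -1 to 1. Vegfa, Bnip3, Egln3, Pgk1 and Ldha form a block of positive values up to 0.86, and Ndrg1 is negative with each of them, down to -0.70.

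Among 7302 other genes with a mean of at least 5 FPKM, those most like Ndrg1 by the same measure were Plpp3 (r = 0.87), Matn2 (0.86), Susd2 (0.86), Tmeff2 (0.85) and Rgs5 (0.84). Plpp3 encodes a phosphatase that degrades lysophosphatidic acid, Matn2 a matrix protein and Rgs5 a regulator of G protein signalling found in pericytes and arterial smooth muscle. Plpp3 was at 80.9 ± 16.7 FPKM in AngII, 65.9 ± 7.52 in Control and 55.7 ± 10.9 in AngII+BAI. Rgs5 was at 692 ± 332, 510 ± 219 and 244 ± 87.3 FPKM in the same groups, and Susd2 at 17 ± 9.16, 8.25 ± 2.24 and 7.5 ± 3.28. Matn2 (32.6 ± 21.1, 12.5 ± 4.18 and 18.4 ± 8.05 FPKM) and Tmeff2 (13 ± 6.63, 5.39 ± 1.95 and 6.42 ± 2.24) instead had a higher mean in AngII+BAI than in Control. Of the listed genes Adm ranked highest, 304th of 7302, and Pgk1 lowest, at 7265.

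The wider pathway was read from lists of genes chosen for their known roles. Together, 55 tested genes of 6 hypoxia lists had a median difference of 0.15 in AngII against Control, beside 0.11 over all genes. Of them 34 were higher, beside 66.6% of all genes tested, 21 were lower and 0 were called by limma. Between AngII+BAI and AngII 28 were higher and 27 lower, with 0 called and a median of 0.01 beside -0.01, and without libraries 3 and 5 of AngII+BAI 25 were higher and 30 lower. The counts and medians describe the lists and show nothing particular to them.

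Among HIF subunits and oxygen sensors, 3 of 7 tested were higher and 4 lower in AngII against Control. Cited2, a competitor of HIF for its coactivator, differed by 0.62 (SE 0.30) and Egln1, the main prolyl hydroxylase, by -0.26 (SE 0.20). With baicalin, against AngII, 3 were higher and 4 lower, and Epas1, the HIF-2 alpha gene, had the largest distance relative to its error. Epas1 was at 42.1, 81.6, 44.9, 71.8 and 42.4 FPKM in AngII+BAI (56.6 ± 18.7), against 66.4 to 91.6 in AngII (78.9 ± 12.4). The difference was -0.52 (SE 0.17). It was -0.31 without libraries 3 and 5, a fit that keeps library 1, which also stood apart. Vhl, which recognises hydroxylated HIF, was at 7.6 ± 4.03 FPKM in AngII+BAI and 8.28 ± 0.72 in AngII. Library 2 of AngII+BAI had 0.978 FPKM of Vhl, and the rest of that group 7.2 to 11.6. Against Control, Epas1 in AngII+BAI differed by -0.62 (SE 0.17, limma adjusted p = 0.0551), and by -0.41 (adjusted p = 0.251) without libraries 3 and 5, with library 1 kept.

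Of 17 glycolysis and lactate genes, 8 were higher and 9 lower in AngII than in Control. Hk1, a hexokinase, was at 18.7 ± 8.91 FPKM with AngII, against 10.2 ± 2.35 in Control (0.73, SE 0.22, limma adjusted p = 0.225). Aldoc, the aldolase of brain and nerve tissue, was at 3.58 ± 4.02 and 0.263 ± 0.191 FPKM (1.33, SE 0.48, adjusted p = 0.287). Both were highest in AngII libraries 1 and 5, Hk1 at 26.9 and 29.9 FPKM and Aldoc at 5.98 and 9.38, which also had the highest neuron marker levels, whose part was not tested. Against AngII, 11 of the 17 were higher in AngII+BAI and 6 lower (9 and 8 without its library 1), and Pfkp, a phosphofructokinase, was at 28.7 ± 3.74 and 37.4 ± 9.11 FPKM. Aldoc was at 0.962 ± 0.902 FPKM in AngII+BAI.

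Angiogenic and vasoactive targets were higher in 5 of 7 and lower in 2 of 7 in AngII against Control. Angpt2, a ligand that loosens vessel walls, differed by 0.41 (SE 0.20) and Angptl4, an inhibitor of lipoprotein lipase, by -0.72 (SE 0.36), neither past the threshold (limma adjusted p = 0.448 and 0.456). Hmox1, heme oxygenase, was at 368 FPKM or more in libraries 3 and 5 of AngII+BAI and at 15.7, 16.2 and 14.2 in the others. In AngII it was at 124 FPKM in library 3 and 10.6 to 14.6 in the rest. The difference of AngII+BAI from AngII was 1.73 (SE 0.85), and -0.38 (SE 0.53) without libraries 3 and 5.

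Of 6 mitochondrial and survival targets, 4 were higher and 2 lower in AngII against Control. Ddit4, an inhibitor of mTORC1 signalling, was at 7.35 ± 4.1 FPKM in Control, 18.3 ± 8.56 in AngII, 20.3 ± 10.1 in AngII+BAI and 6.82 ± 2.38 in AngII+VAL. It rose in AngII+BAI against Control by 1.33 (SE 0.35, limma adjusted p = 0.0491), a call lost without libraries 3 and 5 (1.23, adjusted p = 0.163). In AngII against Control its difference was 1.21 (adjusted p = 0.206). Ndufa4l2, which limits complex I activity, differed there by 0.46 (SE 0.23). Set against AngII, AngII+BAI had 2 higher and 4 lower, with Fam162a at 78 ± 36.1 and 56.2 ± 8.56 FPKM and Higd1a at 18.1 ± 10.6 and 18.7 ± 2.02. Without libraries 3 and 5 of AngII+BAI 4 were higher and 2 lower, and without its library 1 the counts were 2 and 4. In library 1 of AngII+BAI Fam162a was at 139 FPKM, against 44.7 to 76.1 in the rest of the group. Higd1a was at 35.7 FPKM there, against 8.51 to 18.9.

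All 5 collagen-modifying targets had higher levels in AngII than in Control, as did 66.6% of all genes tested, with a median of 0.45 and 0 called by limma. Plod2, a lysyl hydroxylase, was at 35.9 ± 22.1 and 16.7 ± 4.11 FPKM (0.90, SE 0.32, adjusted p = 0.284), and P4ha1, a prolyl hydroxylase of collagen, at 31.4 ± 7.84 and 22.4 ± 3.32 (0.45, SE 0.18, adjusted p = 0.328). Of the 5, 4 were higher and 1 lower in AngII+BAI than in AngII, with Plod1 at 39.3 ± 10.7 and 33.9 ± 5 FPKM and Lox at 93.9 ± 32.4 and 93.4 ± 85.1. Without libraries 3 and 5 of AngII+BAI 1 was higher and 4 were lower. Fibroblast markers, 7 of 7 of which had a level, none at 0 throughout a group, were higher in 7 of 7 in AngII than in Control (median 0.63). Their sums were 895 to 1291 FPKM in Control, 1421 to 3516 in AngII, 1136 to 2556 in AngII+ETH, 802 to 5995 in AngII+BAI, 930 to 1820 in AngII+GAS and 799 to 1612 in AngII+VAL, and their part was not tested.

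Other HIF targets numbered 13 tested, of which 9 were higher and 4 lower in AngII against Control. Ero1l, an oxidase of the endoplasmic reticulum, differed by 0.80 (SE 0.36) and Tmem45a by 0.59 (SE 0.28). Ero1l was at 1.2 FPKM in Control library 5 and at 11.9 to 15 in the rest of Control. Leaving out 1 library at a time gave Ero1l differences of 0.26 to 0.97. Of the 13, 4 were higher and 9 lower in AngII+BAI than in AngII (7 and 6 without its library 1), and the groups did not overlap for Gbe1, the glycogen branching enzyme (5.92 ± 3.82 and 14.8 ± 4.01 FPKM), or for Mxi1, a MYC antagonist (6.27 ± 1.3 and 9.2 ± 1.14). Both were named for the smallest p of their list in this comparison, where 1.7% of all genes did not overlap, so nothing is read from it. For Gbe1 the highest AngII+BAI library was at 10 FPKM and the lowest AngII library at 10.3. Of 6 tested receptors of adrenomedullin and VEGF, 1 was higher and 5 lower in AngII against Control, namely Ramp2, a partner of the adrenomedullin receptor, at 59.5 ± 16.7 and 43.9 ± 7.83 FPKM, and on the lower side Flt1, a VEGF receptor, at 8.77 ± 4.1 and 13.9 ± 5.81. All 6 had a lower fitted level in AngII+BAI than in AngII, but without library 1 of AngII+BAI 4 were higher and 2 lower. In these groups Kdr, the main VEGF receptor of endothelium, was at 14.3 ± 4.59 and 18.9 ± 4.62 FPKM and Nrp2 at 14 ± 11.5 and 12 ± 2.31, its mean in FPKM and its log2 difference of -0.41 having opposite signs. Nrp2 was at 0.122 FPKM in library 1, and without that library its difference was 0.36. In the same comparison endothelial markers, 8 of 8 of which had a level and none was at 0 throughout a group, were lower in 7 of 8 (median -0.33), with sums of 160 to 297 FPKM in AngII and 145 to 202 in AngII+BAI. Smooth muscle markers were lower in 7 of 7 (median -0.64), and in 3 of 7 without libraries 3 and 5; the part of either was not tested.

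The NDRG family differed among itself. Ndrg4, expressed in heart and nervous tissue, had 4.4, 5.04, 5.79, 3.77 and 7.01 FPKM in Control and 56.3, 11.3, 13.5, 12.2 and 41.4 FPKM in AngII. These groups did not overlap, as was so for 3.55% of all genes, and Ndrg4 was named partly for its small p in this comparison. The difference was 1.88 (SE 0.48, limma adjusted p = 0.163), and in AngII+BAI Ndrg4 was at 10.1 ± 2.94 FPKM. The 2 highest AngII libraries, 1 and 5, also had the highest neuron marker levels of the group, with a mean log2(FPKM + 1) of 5.53 and 5.93. All 14 neuron markers had a level, none at 0 throughout a group, with sums of 19.4 to 98.4 FPKM in Control, 18.3 to 1219 in AngII, 53.6 to 656 in AngII+ETH, 61.4 to 220 in AngII+BAI, 34.9 to 138 in AngII+GAS and 10.1 to 414 in AngII+VAL, and the part of nerve tissue was not tested. Ndrg2 was at 28.5 ± 12.8 FPKM in AngII, 19.4 ± 10.8 in Control and 11.8 ± 6.67 in AngII+BAI (difference from AngII -1.29, SE 0.49). Ndrg3 was at 35.6 ± 6.28 FPKM in Control, 32.5 ± 6.89 in AngII and 32.6 ± 4.08 in AngII+BAI.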

How the data were processed

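RNA of 30 abdominal aorta samples was sequenced, in 6 groups of 5 taken from the labels. The authors deposited FPKM values per transcript. The values themselves gave the unit: 98.7% to 99.7% of low values were whole multiples of 1 read's worth. Per the submitters' processing notes the build was mm10 and limma was used; the sources used here name no aligner or quantifier. Of 33677 Ensembl transcripts 33638 matched GENCODE M21, and the sum per gene over the 27797 of them present in every file gave 14379 genes. A floor of 3 reads in 2 kb was 0.0186 to 0.0215 FPKM, which covers counting error only. No 2 libraries of a group were duplicates (at most 0.129% of values identical).

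Log2(FPKM + 1) was fitted with limma 3.58.1 (trend, robust) in R 4.3.3, with 1 mean per group over 30 libraries and 24 residual degrees of freedom, for genes reaching 1 FPKM in 5 or more libraries. Tests were two-sided, adjusted by Benjamini-Hochberg over the 13223 genes of a comparison, threshold 0.05. Fold changes on this scale understate the change of low genes. On simulated data 59% of genes changed by 1 (log2) and 85% of those changed by 2 were called (100 genes each), with 3 false calls, for AngII against Control. Tables used Python 3.11.15, pandas 2.3.3, numpy 2.4.6 and scipy 1.17.1, and plots matplotlib 3.10.9.

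The members and gene lists were chosen with earlier results of these data known. By name are given the members, the 2 genes per list with the smallest p in AngII against Control and in AngII+BAI against AngII (the latter without a p), the NDRG family, list genes past the threshold, and the 5 genes most like Ndrg1. The values of 1 list gene that this rule names are not reported here. Marker lists named cell types. Alternatives were a pseudocount of 0.1, no filter on low values, unlisted transcripts set to 0, quantile normalization, rescaling to nuclear genes, 2 groups in the fit, array weights, Schwann and muscle marker terms, and leaving out each library; leaving out libraries 3 and 5 of AngII+BAI was chosen after seeing the data.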

Additional observations from a re-analysis of the deposited data

Results flagged for a closer look

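In 5 of 54 checks (9 genes in 6 groups) a single library lay far from the other 4 of its group; chance flags about 5% of groups. Vegfa was at 22.9 FPKM in AngII+ETH library 4, below the rest of its group. Slc2a1 was at 18.9 FPKM and Hif1a at 46.1 FPKM in AngII+GAS library 5, each above the rest. Ldha was at 467 FPKM in Control library 4, above the rest. Hif1a was at 53.8 FPKM in AngII library 3, above the rest.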

How the results depend on the processing

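The number of the 9 genes called by limma was recomputed under each alternative. Ndrg1 was picked on AngII and AngII+BAI libraries, so its calls with either group are no test and nothing is read from them. In AngII against Control it was 0, and 1 with array weights, the gene being Ndrg1; leaving out 1 library at a time gave 0 to 1 (1 without AngII 2). In AngII+BAI against AngII it was 1, and 0 with 2 groups in the fit, with array weights, with the Schwann and muscle terms and without libraries 3 and 5 of AngII+BAI; leaving out 1 library gave 0 to 1 (0 without AngII 1, AngII 5 or AngII+BAI 3). In AngII+GAS against AngII it was 0, and 1 with array weights; leaving out 1 library gave 0 to 1 (1 without AngII 2). In AngII+BAI against Control it was 0, and leaving out 1 library gave 0 to 2 (Slc2a1 and Hif1a without AngII+BAI 2). The counts of the other 5 comparisons stayed at 0 in every alternative. Over all genes the count ranged over the alternatives from 0 to 184 in AngII+BAI against AngII (44 as reported), from 5 to 954 in AngII+BAI against Control (190), from 0 to 232 in AngII+GAS against AngII (2), from 0 to 64 in AngII against Control (0), from 0 to 24 in AngII+VAL against Control (0), from 0 to 19 in AngII+VAL against AngII (0), from 0 to 9 in AngII+ETH against Control (0), from 0 to 8 in AngII+GAS against Control (1) and from 0 to 1 in AngII+ETH against AngII (0).

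With the Schwann and muscle terms, AngII against Control gave log2 differences of opposite sign for Vegfa (0.09), Ldha (0.15), Pgk1 (0.16), Adm (-0.04) and Egln1 (0.08). Ndrg1 (0.18) turned in AngII+VAL against AngII. In each compound group against AngII, Egln3 (-0.43 to -0.10) and Ldha (-0.19 to -0.01) turned negative. Pgk1 turned in AngII+BAI (-0.03), AngII+GAS (-0.19) and AngII+VAL (-0.18), and Vegfa in AngII+GAS (-0.27) and AngII+VAL (-0.15). Against Control the sign turned for Pgk1 in AngII+ETH (0.18) and AngII+VAL (-0.01) and for Egln3 in AngII+VAL (-0.16). The sign also turned for Ldha in AngII against Control without Control 4 (range -0.13 to 0.01 when 1 library is left out) and for Ndrg1 in AngII+GAS against Control without AngII+GAS 4 (range -0.16 to 0.01). In AngII+BAI against AngII the ranges of Egln3 (-0.18 to 0.18) and Slc2a1 (-0.03 to 0.12) also spanned 0. The cause was not tested. Ddit4 in AngII+BAI against Control kept its sign in every alternative run and lost the call in 15 of 19. Replicate numbers follow accession order. No paired analysis was possible because the labels give no number or animal that links libraries across groups.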
